A study of Mus musculus with 10 samples.

Results

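The genes examined were 10 regulators of the G1 phase of the cell cycle and of p53, chosen by gene identifier: the cyclins Ccnd1, Ccnd2 and Ccne1, the cyclin-dependent kinase (CDK) inhibitors Cdkn1a, Cdkn1b, Cdkn2a and Cdkn2b, the transcription factor E2f1, the retinoblastoma gene Rb1 and Trp53, which encodes p53. All 10 were among the 16860 genes in the table. Primary smooth muscle cells from the thoracic aorta of 8-week-old C57BL/6 mice were used within 5 passages, and all groups grew in DMEM to which 10% serum (FBS) had been added. Baseline cells (2 arrays) received no stimulus. Cholesterol cells (2 arrays) were loaded for 72 h with a cholesterol complex at 10 µg/mL, in which methyl-β-cyclodextrin, the carrier, exceeds cholesterol 6 to 1 by moles. HDL cells (2 arrays) were loaded in that way too, and human high-density lipoprotein (HDL), which takes up cholesterol from cells, was then applied at 100 µg/mL for 72 h, which puts their harvest at 144 h from the start of loading. The labels name no carrier for the baseline group, and no group with carrier alone or with cholesterol for 144 h was analysed here. Cholesterol, its carrier and time in culture therefore cannot be told apart, and neither can HDL and the later harvest.

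In G1 a cell responds to growth factors. D-type cyclins bind CDK4 and CDK6, and these kinases phosphorylate the retinoblastoma protein, which then releases E2F factors that switch on genes for DNA replication, the gene of cyclin E among them. Cyclin E with CDK2 completes the passage into S phase. The INK4 proteins encoded by Cdkn2a and Cdkn2b block CDK4 and CDK6, whereas p21 and p27, the products of Cdkn1a and Cdkn1b, bind cyclin-CDK complexes more widely. p53 activates Cdkn1a after DNA damage and other stress. In the artery wall smooth muscle cells are normally quiescent, and they re-enter this cycle in culture with serum and after vessel injury. Several of these products, p27 and p53 above all, are controlled to a large extent as proteins, which arrays do not measure.

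Values are log2 values after Robust Multichip Average (RMA) normalization of all 6 arrays together, so a difference of 1 is a factor of 2 in signal. Levels of different genes come from different probes and are not set against each other. The medians of the arrays lay between 6.93 and 6.98. A gene was called when its limma p, adjusted by Benjamini-Hochberg over all 16860 genes, was under 0.05, and the words rose and fell are kept for called genes. Each comparison rests on 2 arrays a group. Nothing in the labels ties replicate arrays to separate cultures, and the spread behind the p-values may therefore be technical. On the baseline arrays the identifier ENSMUSG00000069045_at, for which no symbol was at hand, read 8.82 and 8.73. It read 3.70 and 3.86 after cholesterol and 3.75 and 3.87 after HDL, and whether 1 isolate of cells supplied all groups is not stated in the labels. In comparisons with baseline, loading and the origin of the cells cannot be told apart. The label of smooth muscle could not be checked against marker genes, since identifiers were paired with symbols for the 10 genes alone.

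After cholesterol loading the 3 cyclins and E2f1 fell, and no gene of the 10 rose. Thus 4 of 10 genes were called, all as falls, while 23.5% of all genes were called, 13.1% as falls and 10.4% as rises. The median change of the 10 genes was -0.34, against -0.03 for all genes. The changes ran from -2.50 for Ccnd1 to 0.26 for Cdkn1a. Arrays of both groups did not overlap for 7 of the 10 genes, 6 lower and 1 higher after cholesterol, where 35.4% of all genes lay lower and 28.1% higher without overlap. In these bulk samples fewer cells that express a gene and less of its RNA per cell cannot be told apart.

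**Figure D1:**
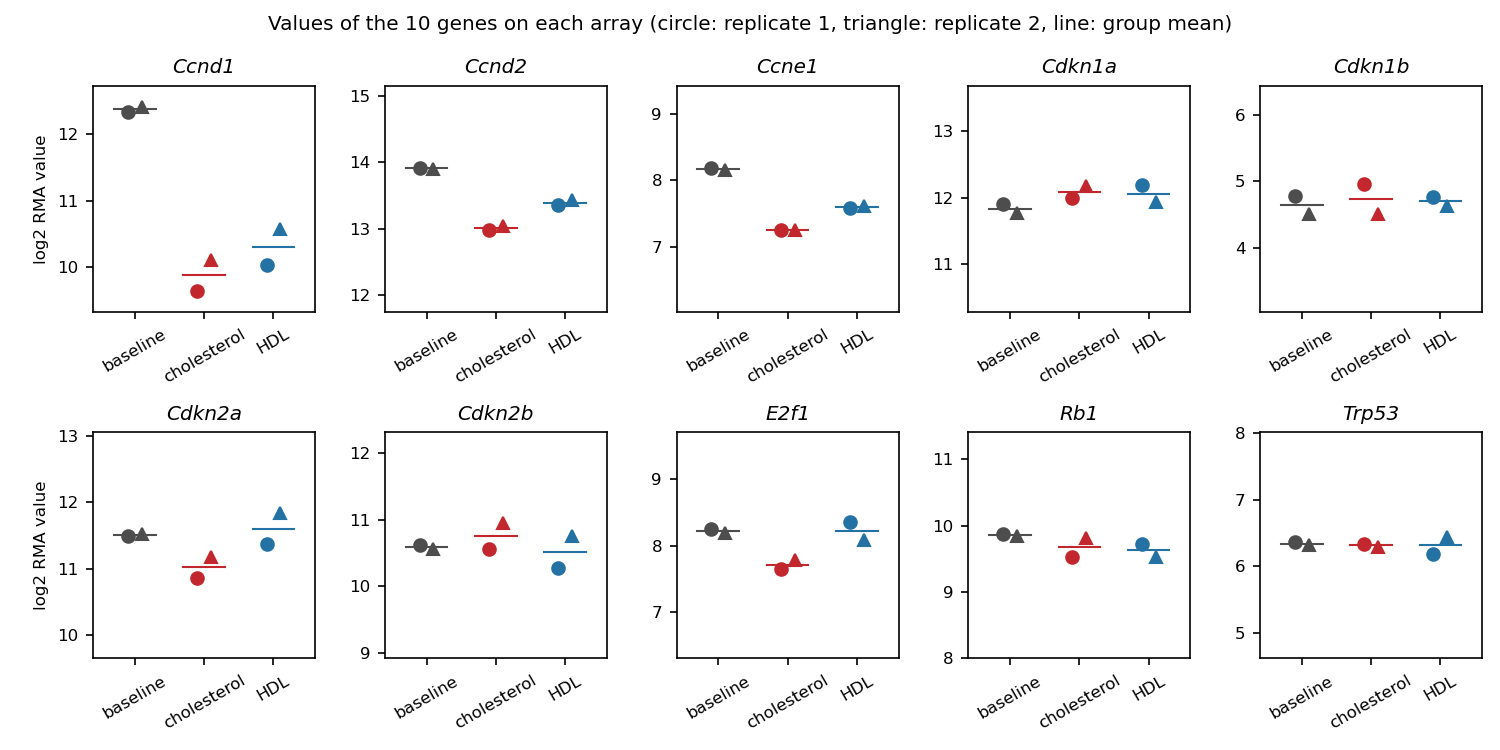
Log2 RMA value (vertical axes, all spanning a range of the same width) of each of the 10 genes on each array of the baseline, cholesterol and HDL groups; circles are replicate 1, triangles replicate 2 and lines the mean of 2 arrays. Ccnd1, Ccnd2 and Ccne1 are highest on both baseline arrays, and the Trp53 arrays of all groups overlap.

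Ccnd1 (ENSMUSG00000070348_at), which encodes cyclin D1, changed most. Its log2 values were 12.34 and 12.41 at baseline, 9.64 and 10.11 after cholesterol, and 10.03 and 10.58 after HDL. Both baseline arrays lay more than 1 above every other array, while the cholesterol and HDL arrays overlapped. With loading Ccnd1 fell by 2.50 ± 0.21 (SE, n = 2 a group; limma adjusted p = 0.000342), which is 5.64-fold lower. Ranked by size, this was fall number 41 among 16860 genes. It remained 4.18-fold below baseline after HDL, with a change of -2.06 ± 0.21 (SE; limma adjusted p = 0.000825). Between cholesterol and HDL the difference was 0.43, with a 95% interval from -0.07 to 0.93 (limma adjusted p = 0.348). It was 0.20 and 0.67 without cholesterol replicate 1 or 2, and 0.71 and 0.16 without HDL replicate 1 or 2, and was called in none of these.

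Ccnd2 (ENSMUSG00000000184_at), the gene of cyclin D2, moved in the same direction by a smaller amount. It read 13.92 and 13.90 at baseline, 12.98 and 13.05 after cholesterol, and 13.36 and 13.43 after HDL. No group overlapped with another, and the HDL arrays lay between the others. The fall with cholesterol was 1.86-fold, a change of -0.90 ± 0.09 (SE, n = 2 a group; limma adjusted p = 0.0006). After HDL it was still 1.43-fold below baseline, with a change of -0.52 ± 0.09 (SE; limma adjusted p = 0.00721). That call was lost without baseline replicate 1 (limma adjusted p = 0.0602) and without baseline replicate 2 (limma adjusted p = 0.058). From cholesterol to HDL the difference was 0.38, with an interval from 0.17 to 0.59, and was not called (limma adjusted p = 0.0767); it was called when the prior on the spread followed signal strength (limma adjusted p = 0.0281).

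The unequal size of these falls can be read within each array as the Ccnd1 value minus the Ccnd2 value. This difference was -1.58 and -1.49 at baseline, -3.33 and -2.94 after cholesterol, and -3.32 and -2.85 after HDL. Loaded arrays lay below the baseline arrays in every case, and cholesterol and HDL arrays overlapped. The fall of Ccnd1 exceeded that of Ccnd2 by 1.60 with cholesterol, a factor of 3.03 (exact permutation test, two-sided, p = 0.333, the smallest p that 2 against 2 arrays allow). The change from cholesterol to HDL differed between both genes by 0.05 (exact permutation test, two-sided, p = 0.667). The mean signal of Ccnd2 exceeded that of 99.5% of genes, and that of Ccnd1 exceeded 92.8%. Whether a signal near the top of the range made the fall of Ccnd2 read smaller was not tested. The pair was chosen after its values had been seen.

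Ccne1 (ENSMUSG00000002068_at) encodes cyclin E1, the partner of CDK2. Its values were 8.18 and 8.15 at baseline, 7.26 and 7.26 after cholesterol, and 7.59 and 7.62 after HDL. Replicates differed by at most 0.03, and no group overlapped with another. Ccne1 fell 1.88-fold with cholesterol, by -0.91 ± 0.08 (SE, n = 2 a group; limma adjusted p = 0.000466), and lay 1.48-fold below baseline after HDL, by -0.56 ± 0.08 (SE; limma adjusted p = 0.00413). The difference of 0.34 between HDL and cholesterol, with an interval from 0.15 to 0.54, was not called (limma adjusted p = 0.0881). Over the 6 arrays the pattern of Ccne1 was the most like that of Ccnd2 among the 10 genes (Pearson r = 0.996, Spearman rho = 0.94) and the most like that of Ccnd1 (r = 0.960, rho = 0.77). These correlations describe 6 arrays that fall into 3 groups and share 1 normalization run.

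E2f1 (ENSMUSG00000027490_at), the transcription factor held back by the retinoblastoma protein, fell with cholesterol and read close to its baseline values after HDL. It read 8.25 and 8.20 at baseline, 7.65 and 7.78 after cholesterol, and 8.36 and 8.09 after HDL. Cholesterol arrays lay below all others, and the HDL arrays lay on either side of the baseline arrays. The fall was 1.42-fold, a change of -0.51 ± 0.12 (SE, n = 2 a group; limma adjusted p = 0.0196). It was no longer called without baseline replicate 1, baseline replicate 2, cholesterol replicate 1 or cholesterol replicate 2 (limma adjusted p = 0.121, 0.0909, 0.13 and 0.0566), with changes from -0.58 to -0.44. HDL and baseline differed by 0.00, with an interval from -0.27 to 0.27 (limma adjusted p = 0.998). HDL exceeded cholesterol by 0.51, with an interval from 0.24 to 0.78 (limma adjusted p = 0.0747), a difference that was called without HDL replicate 2 (0.64; limma adjusted p = 0.0154). Among the 10 genes its pattern was most like that of Ccnd2 (r = 0.758, rho = 0.66, 6 arrays).

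The submitters' one-way test, which estimates the spread gene by gene from 4 arrays, called 0 of the 10 genes in each comparison, and 3, 0 and 0 of all genes, for cholesterol against baseline, HDL against cholesterol and HDL against baseline. At an unadjusted p under 0.05 were 4, 2 and 3 of the 10 genes, against 28.1%, 9.35% and 20.1% of all genes. With cholesterol its adjusted p was 0.0922 for Ccnd1, 0.0737 for Ccnd2, 0.0727 for Ccne1 and 0.123 for E2f1, and unadjusted it was 0.00898, 0.00185, 0.00034 and 0.0209. After HDL against baseline the adjusted p was 0.186 for Ccnd1, 0.141 for Ccnd2 and 0.124 for Ccne1.

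Since cyclin E is a classical E2F target, the sequence before its start is shown. It is from RefSeq, build GRCm38.p6, minus strand, written 5′ to 3′ and ending at the base before the transcription start.

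Ccne1, chr7:38107491-38107740: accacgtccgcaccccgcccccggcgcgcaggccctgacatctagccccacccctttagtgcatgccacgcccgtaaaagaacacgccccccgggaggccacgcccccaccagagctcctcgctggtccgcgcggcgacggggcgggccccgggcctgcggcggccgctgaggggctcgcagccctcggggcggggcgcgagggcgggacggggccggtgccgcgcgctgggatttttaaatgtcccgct

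This window and those of 6 more of the 10 genes were searched on both strands for the E2F motif spelled TTTCGCGC, TTTGGCGC, TTTGCCGC or TTTCCCGC. The letters do not occur in the Ccne1 window. Other spellings, and bases after the start, were not searched, so a site for E2F may still be present. Of 9 windows of 250 bases before listed starts of the 7 genes, 1 held a match, that before the upstream start of Cdkn2a. Among all 32851 windows of that length 1.86% held one. The E2f1 window (chr2:154569427-154569676, minus strand) lies before a listed start within the gene, whose span reaches 154569892. The sequence before that outer end of E2f1 was therefore not searched. Ccnd1, Ccnd2 and Rb1 were not searched at all.

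**Figure D2:**
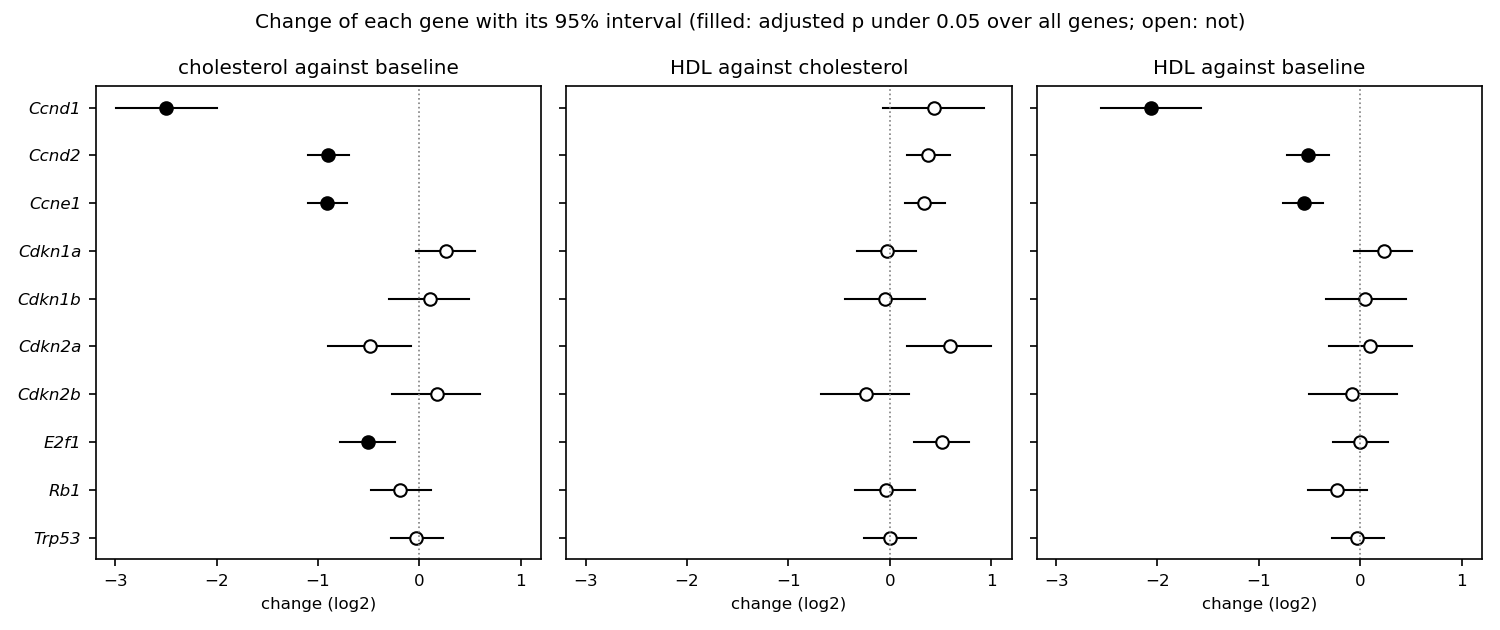
Change of each gene on the log2 scale (horizontal axes) in the 3 comparisons, as points with 95% intervals from limma; filled points had an adjusted p under 0.05 over all genes. In the comparison of cholesterol with baseline 4 points are filled, all to the left of 0, in that of HDL with cholesterol none, and in that of HDL with baseline 3.

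Of the INK4 family, Cdkn2a encodes p16Ink4a and, from another start and reading frame, Arf, which stabilises p53 by restraining its ubiquitin ligase Mdm2. Cdkn2b encodes p15Ink4b and is the next protein-coding gene on mouse chromosome 4. The array has one value for Cdkn2a, which does not tell the p16Ink4a and Arf transcripts apart. To show that these are separate starts, the 250 bases before each are given 5′ to 3′ on the minus strand (RefSeq, GRCm38.p6), with the one E2F motif match in capitals.

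Cdkn2a, upstream start (Arf), chr4:89294620-89294869: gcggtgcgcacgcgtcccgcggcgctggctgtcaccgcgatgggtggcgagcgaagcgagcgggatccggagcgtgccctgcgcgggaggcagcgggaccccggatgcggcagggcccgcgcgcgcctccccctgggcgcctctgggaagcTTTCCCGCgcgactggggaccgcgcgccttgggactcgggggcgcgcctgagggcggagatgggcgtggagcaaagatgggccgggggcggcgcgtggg
Cdkn2a, downstream start (p16Ink4a), chr4:89282193-89282442: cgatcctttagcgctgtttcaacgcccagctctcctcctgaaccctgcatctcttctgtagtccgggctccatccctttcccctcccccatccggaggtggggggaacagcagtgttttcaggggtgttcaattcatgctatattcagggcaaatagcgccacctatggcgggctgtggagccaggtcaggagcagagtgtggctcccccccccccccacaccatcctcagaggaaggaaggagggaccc
Cdkn2b, chr4:89311033-89311282: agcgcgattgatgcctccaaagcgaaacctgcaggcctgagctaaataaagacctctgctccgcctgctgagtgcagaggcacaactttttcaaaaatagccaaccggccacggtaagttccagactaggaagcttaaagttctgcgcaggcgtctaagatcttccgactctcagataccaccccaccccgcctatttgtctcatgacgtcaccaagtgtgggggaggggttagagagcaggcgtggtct

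Cdkn2a (ENSMUSG00000044303_at) read lower after cholesterol than in both other groups, but was not called in any comparison. Its values were 11.50 and 11.52 at baseline, 10.86 and 11.18 after cholesterol, and 11.37 and 11.84 after HDL. Cholesterol arrays lay below every other array, and the HDL arrays lay on either side of baseline. The difference from baseline with cholesterol was -0.49, with an interval from -0.90 to -0.08 (limma adjusted p = 0.0906). In 6 of 14 alternatives it was called, among them the fit of the baseline and cholesterol arrays alone, both in this normalization (-0.49; limma adjusted p = 0.021) and in the submitters' first one (-0.51; limma adjusted p = 0.0189). Leaving out either HDL array repeated the former fit, since a lone HDL array adds nothing to the spread. The first normalization used the same arrays, so these calls are not separate evidence. HDL exceeded cholesterol by 0.59, with an interval from 0.17 to 1.00 (limma adjusted p = 0.141), and by 0.82 without HDL replicate 1, where it was called (limma adjusted p = 0.0404). HDL and baseline differed by 0.10 (interval from -0.31 to 0.51).

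Cdkn2b (ENSMUSG00000073802_at) read 10.61 and 10.56 at baseline, 10.55 and 10.95 after cholesterol, and 10.27 and 10.75 after HDL. All 3 groups overlapped, and the largest of the differences between groups, HDL against cholesterol, was -0.24 with an interval from -0.68 to 0.19 (limma adjusted p = 0.561). That value was -0.44 and -0.04 without cholesterol replicate 1 or 2, and -0.00 and -0.48 without HDL replicate 1 or 2. On the cholesterol and the HDL arrays alike, replicate 2 read higher than replicate 1 by 0.32 and 0.47 for Cdkn2a and by 0.40 and 0.48 for Cdkn2b. Ccnd1 showed the same, by 0.47 and 0.55. Of all genes 1.95% had replicate 2 higher by more than 0.25 in both groups. At baseline these 3 genes differed between replicates by at most 0.07.

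On the cholesterol and HDL arrays, the Cdkn2a value minus the Cdkn2b value varied less between replicates than either gene did, which was not so at baseline. It was 0.89 and 0.95 at baseline, 0.30 and 0.23 after cholesterol, and 1.10 and 1.09 after HDL. No group overlapped with another, and the cholesterol arrays were the lowest. Relative to Cdkn2b, Cdkn2a was thus 1.58-fold lower with cholesterol than at baseline and 1.78-fold higher with HDL than with cholesterol (exact permutation test, two-sided, p = 0.333 each, the smallest p that 2 against 2 arrays allow). This pair, too, was chosen after its values had been seen, and a ratio within an array shows unequal change without saying which gene changed.

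**Figure D3:**
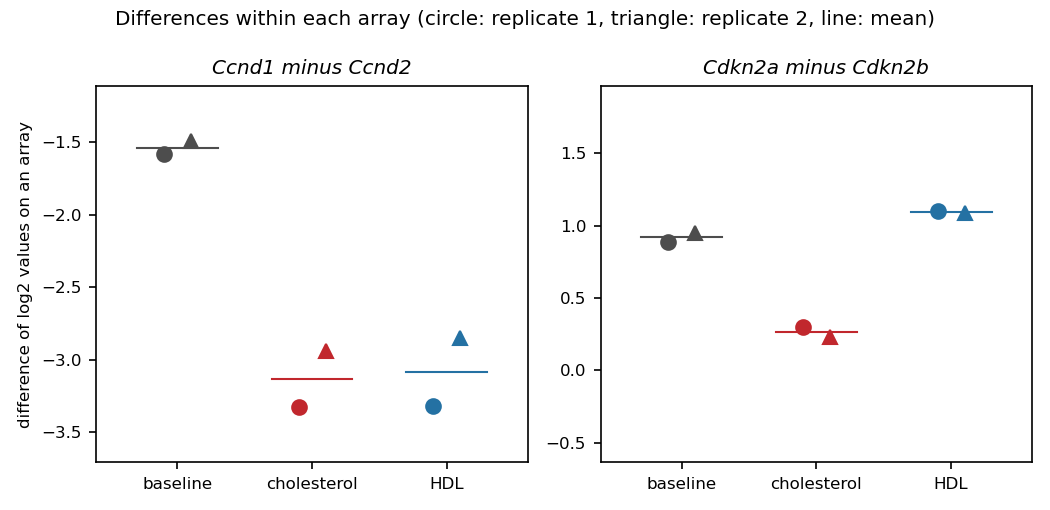
Difference of 2 log2 values on the same array (vertical axes) for Ccnd1 minus Ccnd2 and for Cdkn2a minus Cdkn2b, by group; circles are replicate 1, triangles replicate 2 and lines the mean. Ccnd1 minus Ccnd2 is near -1.5 at baseline and near -3 on the other 4 arrays, and Cdkn2a minus Cdkn2b is lowest on both cholesterol arrays.

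The p21 and p27 genes were not called in any comparison. Cdkn1a (ENSMUSG00000023067_at), the p53-responsive gene of p21, read 11.90 and 11.77 at baseline, 12.00 and 12.18 after cholesterol, and 12.19 and 11.93 after HDL. Both loaded groups lay above the baseline arrays without overlap and overlapped with each other. Cholesterol exceeded baseline by 0.26, with an interval from -0.03 to 0.55 (limma adjusted p = 0.194), and HDL exceeded baseline by 0.23, with an interval from -0.06 to 0.51 (limma adjusted p = 0.261). For Cdkn1b (ENSMUSG00000003031_at) the values were 4.78 and 4.50 at baseline, 4.96 and 4.51 after cholesterol, and 4.76 and 4.63 after HDL. All groups overlapped, and replicates differed by up to 0.45, more than any group mean from another. Its mean lay in the dimmest 25% of genes, where RMA compresses differences.

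Rb1 (ENSMUSG00000022105_at), whose product restrains E2F factors, read 9.87 and 9.84 at baseline, 9.53 and 9.82 after cholesterol, and 9.72 and 9.53 after HDL. Both loaded groups lay below baseline without overlap, though the nearest arrays were 9.82 and 9.84. The differences from baseline were -0.19 with cholesterol (interval from -0.48 to 0.11; limma adjusted p = 0.356) and -0.23 with HDL (interval from -0.52 to 0.07; limma adjusted p = 0.262). Trp53 (ENSMUSG00000059552_at) had the smallest range of group means of the 10 genes, 0.03. It read 6.36 and 6.32 at baseline, 6.33 and 6.29 after cholesterol, and 6.18 and 6.44 after HDL, and all groups overlapped. The interval of its difference between cholesterol and baseline ran from -0.28 to 0.23, and that between HDL and cholesterol from -0.26 to 0.26.

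From cholesterol to HDL 0 of 10 genes were called, with 2.73% of all genes called by limma, 1.79% as rises and 0.949% as falls. At an unadjusted limma p under 0.05 were 4 of the 10 genes, against 3034 of all 16860 genes. The 4 were Ccnd2, Ccne1, Cdkn2a and E2f1, each higher with HDL. These 4 genes were also those whose HDL arrays all lay above the cholesterol arrays, which was so for 24.7% of all genes; 0 of 10 lay below without overlap, against 22.4%. The median difference of the 10 genes was 0.17, against 0.00 for all genes. HDL arrays compared with baseline gave 3 falls, Ccnd1, Ccnd2 and Ccne1, and 0 rises, where 20.0% of all genes were called, 10.9% as falls and 9.13% as rises. Without overlap 4 of the 10 genes lay lower and 1 higher than at baseline, against 33.3% and 25.8% of all genes. The median there was -0.05 for the 10 genes and -0.02 for all. The comparisons share arrays: the cholesterol arrays enter the comparisons with baseline and with HDL, and the baseline arrays enter both comparisons against baseline.

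**Figure D4:**
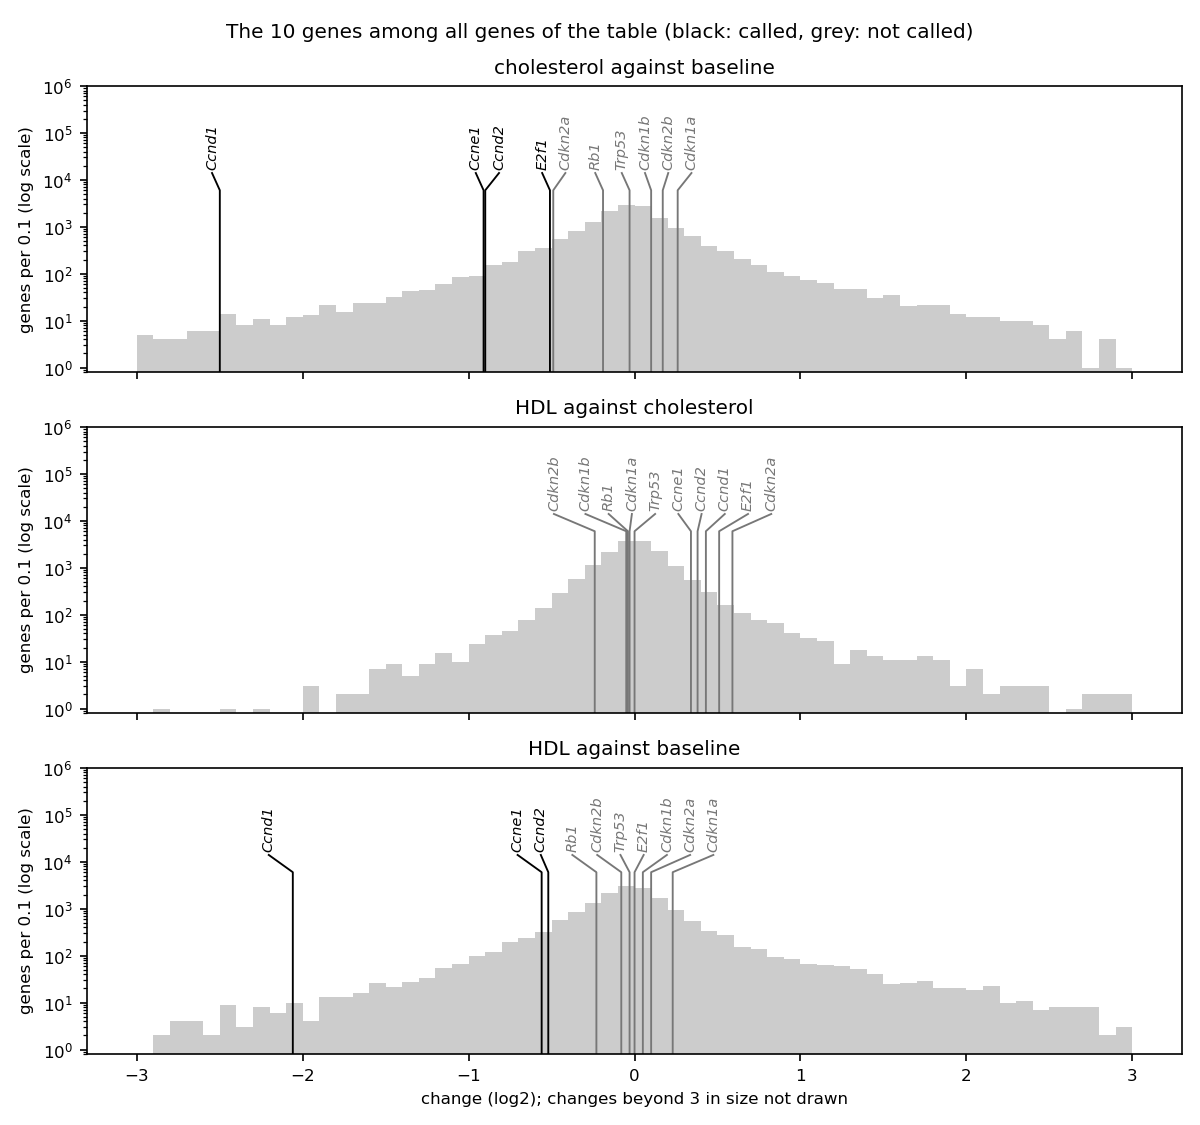
Number of genes (log axis) by change on the log2 scale in bins of 0.1, for all genes within 3 of 0 (grey bars), with the 10 genes marked (black called, grey not called), in the 3 comparisons. Ccnd1 stands in the left tail against baseline in both comparisons, at -2.50 and -2.06, and in the middle panel all 10 genes lie between -0.24 and 0.59.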

How the data were processed

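RNA was measured on 6 Affymetrix mouse genome arrays. Per the labels and design text, the authors made the deposited log2 values with RMA and a custom probe mapping to Ensembl genes (release 59); the version of RMA is not given in the sources used here. The table has 10 columns: baseline and cholesterol arrays were normalized in analysis I, and again with the HDL arrays in analysis II. Analysis II was used, and the 4 columns of analysis I are the same arrays, not replicates. RMA gives arrays a common distribution, so a change in total RNA per cell would not show. Precision is limited by the number of arrays.

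Groups follow the titles, and all arrays were fitted in one limma 3.58.1 model of 3 groups (R 4.3.3, two-sided, no filter), with 3 residual and 4.03 prior degrees of freedom. Adjusted p-values cover all 16860 genes. Alternatives changed the arrays fitted, the test, the filter, scaling, prior, array weights and block, or left out each array.

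The 10 genes and the lists were chosen with earlier results of these data known. All 10 are named. Identifiers were paired with symbols by the rule that chose the genes. The reference table (GRCm38.p6) matched 10 symbols but 0 identifiers, so 8 pathway lists (122 entries) and 5 marker lists fixed by symbol, and likeness to their genes, were not tested.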

Additional observations from a re-analysis of the deposited data

How the results depend on the processing

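Of 397 alternative values for the 10 genes in 3 comparisons, 355 kept direction and side of the threshold. That count includes differences that were uncalled in both fits. It also includes repeats, since leaving out either array of the group not compared gave the fit of the 2 compared groups alone. None of the 7 called falls changed sign. The submitters' one-way test, which has fewer degrees of freedom by construction, called 0 of the 10 genes in each comparison. Over all genes it made 3 calls with cholesterol against baseline, then 0 with HDL against cholesterol and 0 with HDL against baseline, with 4746 genes at an unadjusted p under 0.05 in the first, 1577 in the second and 3391 in the third comparison. The arrays of the 2 groups compared alone gave 145 genes in all for HDL against cholesterol. An intensity trend in the prior gave 1 of the 10 genes there, Ccnd2, and 526 of all genes. When each array was left out once (the lone array of that group being taken to vary as the others do), 3 to 5 of the 10 genes were called for cholesterol against baseline, 0 to 1 when HDL was set against cholesterol and 2 to 3 when it was set against baseline. The counts over all genes were then 1861 to 4915, 74 to 1656 and 1263 to 4256.

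Sign changes were met only in differences that were not called. Centring each array on its median gave -0.01 for Trp53 (HDL against cholesterol) and -0.04 for E2f1 (HDL against baseline). The other sign changes came from leaving out 1 array. For cholesterol against baseline, Cdkn1b then ranged from -0.13 to 0.32 and Cdkn2b from -0.03 to 0.37. For HDL against cholesterol, Cdkn1a ranged from -0.16 to 0.10, Cdkn1b from -0.27 to 0.18, Rb1 from -0.19 to 0.10 and Trp53 from -0.13 to 0.13. For HDL against baseline, Cdkn1b ranged from -0.09 to 0.19, Cdkn2a from -0.14 to 0.33, Cdkn2b from -0.31 to 0.16, E2f1 from -0.13 to 0.13 and Trp53 from -0.15 to 0.10. The cause was not tested.

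The groups share the replicate numbers 1 and 2, which the labels do not tie to a culture or day. Deviations of same-numbered arrays correlated across genes by 0.02 (baseline and cholesterol), 0.01 (baseline and HDL) and 0.13 (cholesterol and HDL). Whether same-numbered arrays share a source was not settled by this. With the replicate number as a block, 5 of the 10 genes were called for cholesterol against baseline (Cdkn2a in addition, adjusted p = 0.0403), 0 in the comparison of HDL with cholesterol and 3 in that with baseline; over all genes the counts were 3788, 392 and 3285.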
